A study of Rattus norvegicus with 8 samples.

Results

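Colon RNA of rats with colitis that had eaten fish oil was compared with colon RNA of rats with colitis that had eaten an n-6 diet. The 4 arrays were chosen by their sample titles, 2 of the fish oil colitic group and 2 of the n-6 colitic group, out of 8 in the series. Both groups drew their colitis from 7 days of 5% dextran sulfate sodium (DSS), which damages the epithelium of the large bowel. The fish oil rats had a diet enriched with fish oil, described in the labels as rich in eicosapentaenoic and docosahexaenoic acid, for 8 weeks, and the n-6 rats had a diet enriched with sunflower oil for the same time. All were female Wistar rats aged 14 weeks, with 10 rats in each colitis group. The other 4 arrays on the same slide held a DSS group fed ALA (α-linolenic acid, the n-3 fatty acid of some plant oils), and a healthy control group of 6 rats fed sunflower oil without DSS. RNA of 6 rats was pooled for the arrays, and whether both arrays of a group carried 1 pool is not given in the labels. The p-values therefore measure only the spread between arrays. No group without an added oil was analysed here, so an effect of fish oil and one of eating less sunflower oil cannot be told apart. The tissue label of every array, colitic ones included, reads colon of a healthy rat, and the groups were taken from the titles.

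Long-chain n-3 fatty acids of fish oil enter cell membranes in place of the n-6 fatty acid arachidonic acid. Arachidonic acid is released by phospholipase A2 and turned by cyclooxygenases into prostaglandins and by lipoxygenases into leukotrienes, lipid signals that act in inflammation. Fatty acids also bind nuclear receptors of the PPAR family, which switch on genes of fatty acid oxidation. In DSS colitis the epithelium is eroded, blood enters the lumen, and neutrophils and monocytes move into the wall, drawn by chemokines and held by adhesion molecules on the endothelium.

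Levels are given as log2 of the processed spot signal minus the 75th percentile of that array, so 0 is a spot as bright as the 75th percentile. Differences are fish oil colitis minus n-6 colitis on the same log2 scale, with the standard error (SE) of the fit. The 75th percentile itself was 115.5 and 324.5 intensity units on the fish oil arrays, against 403.2 and 239.1 on the n-6 arrays, so fish oil replicate 1 was the dimmest of all 8. Probes well above background made up 54.0% and 64.0% on the fish oil arrays and 68.3% and 59.8% on the n-6 arrays. Across genes, which are not independent, the 2 fish oil arrays correlated at 0.971 and the 2 n-6 arrays at 0.948. The correlation of n-6 replicate 2 with the fish oil arrays was 0.968 for both, while that of n-6 replicate 1 was 0.912 and 0.927. N-6 replicate 1 thus stood apart from the other 3 arrays, and values without it are given beside the gene lists. With the 2 ALA arrays it correlated at 0.95 and 0.951, near its value with n-6 replicate 2. The fish oil arrays lay in slide columns 1 and 2 and the n-6 arrays in columns 3 and 4 of the same row, so group and slide column cannot be told apart. Colon markers were present in both groups. Lypd8, a protein that colon epithelium secretes, stood at 10.22 and 8.85 with fish oil and at 8.25 and 8.86 with n-6. Krt20, a keratin of surface colonocytes, stood at 8.12 and 7.72 with fish oil and at 6.46 and 8.10 with n-6. In pooled tissue RNA, fewer cells of a type and less RNA per cell cannot be told apart.

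Of 18171 genes tested, 7 passed an adjusted p of 0.05 in a limma fit over all 8 arrays with Benjamini-Hochberg adjustment, 3 higher and 4 lower with fish oil, which is 0.0385% of the genes. No gene passed when n-6 replicate 1, either fish oil array, ALA replicate 2 or either healthy array was left out, with 878 to 1923 genes at an unadjusted p under 0.05, while leaving out n-6 replicate 2 kept the count at 4 and leaving out ALA replicate 1 at 6. The differences of the 7 genes held their direction in each of these fits. The 4 lower genes were haemoglobin chains. The 3 higher ones were Lpal2, Slurp2 and a transcript without a gene name. No higher gene passed with either normexp setting. Among genes well above background on all 8 arrays, 4 passed and all lay lower. The 3 higher genes were not tested there, since neither n-6 array had them well above background. Lpal2 passed in 11 of 21 alternatives, and Slurp2 and the unnamed transcript in 7 of 21 each, with differences down to 1.38, 1.26 and 0.87. The 2 sequences below are the array probes of Hbb-b1 and Hbe2, shown because globin genes are close copies of each other and a probe may read more than 1 of them. Capitals mark the bases at which both probes are identical when slid over each other: 35 of the 44 bases they share.

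Hbb-b1: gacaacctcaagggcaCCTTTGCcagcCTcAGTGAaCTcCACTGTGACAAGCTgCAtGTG
Hbe2: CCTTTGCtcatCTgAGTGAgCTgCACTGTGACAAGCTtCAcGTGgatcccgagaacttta

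On the rn4 build, the Hbb-b1 probe lies at chr1:161597660-161597719 on the minus strand and the Hbe2 probe at chr1:161648636-161648695 on the minus strand. The probe of Hbb lies in the same region, at chr1:161584872-161584931, and that of Hba-a1 at chr10:15584360-15584419, both on the minus strand. Of the 10 pairs among the 5 globin probes, this pair alone shared such a stretch. Probes were compared with each other and not with the RNA of the other chains, so this cannot show that any probe is specific. The values below are those of probes, and how much RNA of each chain any of the 5 globin probes bound is uncertain.

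Haemoglobin carries oxygen in red cells, with 2 alpha-type and 2 beta-type chains. Hba-a1, an alpha chain, stood at 2.60 and 2.43 in fish oil colitis, against 7.06 and 6.5 in n-6 colitis. Hbb, a beta chain, stood at 0.93 and 1.38 with fish oil and at 5.78 and 5.42 with n-6. Hbb-b1, another beta chain, stood at 0.85 and 0.91 with fish oil and at 6.26 and 5.40 with n-6. For each of the 3 chains both n-6 arrays lay far above both fish oil arrays, and the gap between groups was many times the gap between arrays of a group. Hba-a1 fell by 4.26 (SE 0.311, limma adjusted p = 0.0116) on the log2 scale, Hbb by 4.44 (SE 0.314, limma adjusted p = 0.0116) and Hbb-b1 by 4.95 (SE 0.36, limma adjusted p = 0.0116). Hbe2, an embryonic-type beta chain, had the widest difference of the 4, with -1.08 and -0.98 in fish oil colitis against 4.54 and 3.49 in n-6 colitis. It fell by 5.04 (SE 0.397, limma adjusted p = 0.0155).

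The remaining chain tested, Hbb-bs, stood at -0.06 and -1.19 with fish oil and at 3.96 and 2.70 with n-6. Its arrays did not overlap either, but its difference of -3.96 had an adjusted p of 0.233. The median difference of the 5 chains was -4.44, beside 0.01 over all genes tested, and it was -4.26 without n-6 replicate 1. Second probes gave -4.40 for Hba-a1, -4.24 for Hbb and -4.78 for Hbb-b1. In a fit of every probe on its own, that of Hbb-b1 passed (limma adjusted p = 0.0103) and the other 2 did not (0.0737 each). The second Hbb probe stood at -5.64 and -6.69 with fish oil. The faintest probes measured well above background on those arrays stood at -4.70 and -5.99. The second Hba-a1 probe, at -5.09 on fish oil replicate 1, was also below that floor. In the authors' deposited value table, however, the row matched to Hbb by gene name differed by -0.70 and did not pass. Which probe that row holds was not tested. Over all alternatives the limma adjusted p of Hbb reached 0.771. The ALA arrays had Hba-a1 at 2.96 and 2.87, and the healthy arrays at 1.95 and 1.81. The n-6 arrays were thus the high ones among all 8, and both fish oil arrays stood between the healthy and the ALA arrays at this probe.

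**Figure D1:**
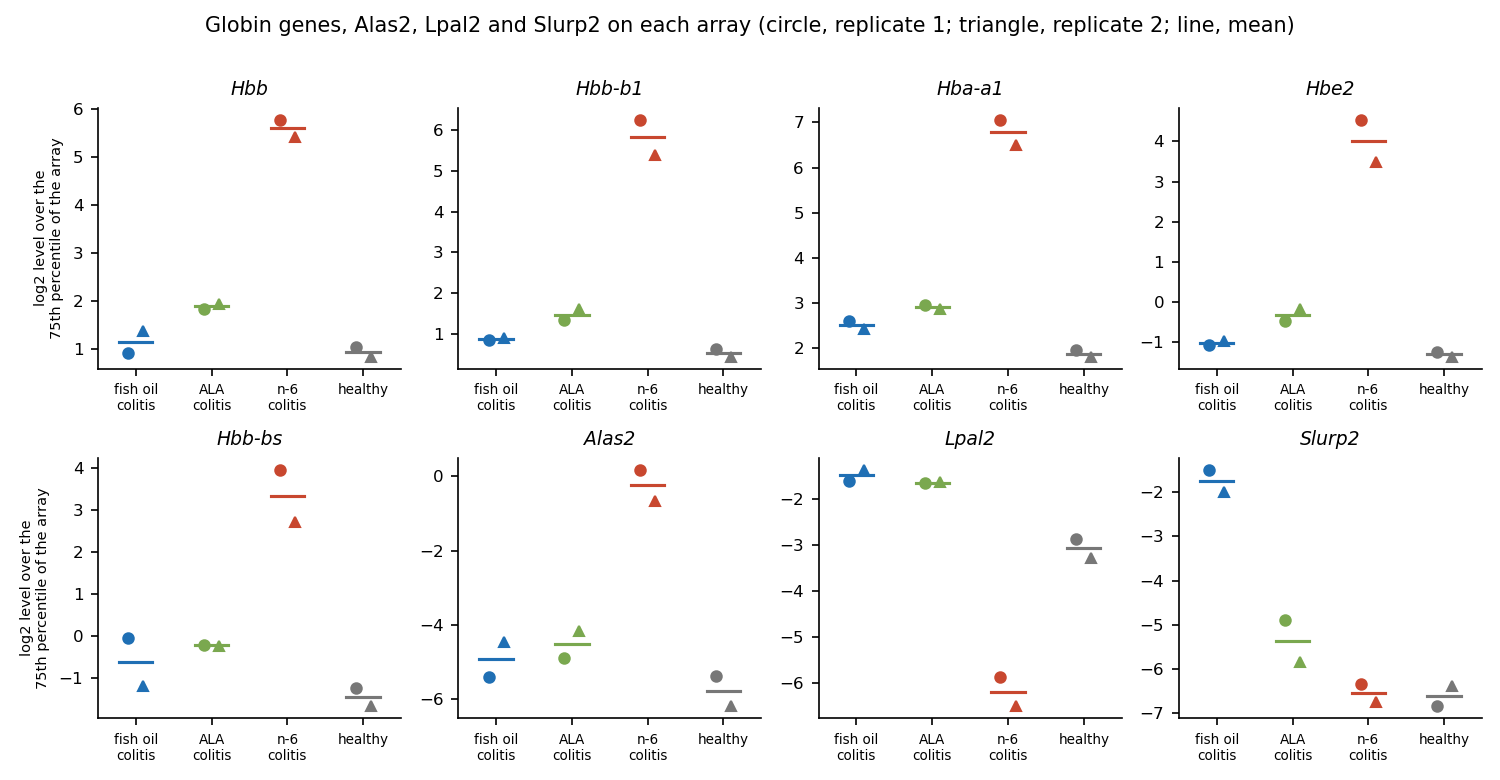
Log2 level over the 75th percentile of the array (vertical axis) of 5 haemoglobin chains, Alas2, Lpal2 and Slurp2 on each of 8 arrays; circles are replicate 1, triangles replicate 2 and lines the mean of each group. Both n-6 arrays stand above all others for the haemoglobin chains and Alas2, and both fish oil arrays stand above all others for Slurp2.

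Genes of red cell precursors were looked at beside the haemoglobin chains. Of 18 such genes 7 were tested, 5 with a difference below 0 and 2 above it. The haem synthesis enzyme and the globin chaperone lay lower with fish oil, while the 2 iron import genes tested differed by -0.02 and 0.59. Alas2, which makes the first haem precursor in developing red cells, stood at -5.39 and -4.46 with fish oil, against 0.18 and -0.67 with n-6. Only 1 fish oil array had it well above background, and its difference of -4.68 had an adjusted p of 0.0948. Ahsp, a chaperone of free alpha chains, stood at -1.86 and -2.45 with fish oil and at 0.05 and -0.40 with n-6, a difference of -1.98 (adjusted p = 0.408). For both genes the groups did not overlap. Tfrc, the transferrin receptor that brings iron into cells, overlapped between groups, with a difference of -0.02. The list had a median of -0.42, which turned to 0.28 under normexp background correction with 75th percentile scaling and was -0.49 without n-6 replicate 1.

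Of 17 genes of haem and iron handling tested, 2 had an unadjusted p under 0.05 and lay lower, against 6.00% of all genes. The median was -0.14 (0.24 under normexp with 75th percentile scaling), and -0.22 without n-6 replicate 1. Hmox1, which breaks down haem, stood at 0.77 and 0.76 with fish oil and at -0.18 and 0.59 with n-6, a difference of 0.56. Hp, the plasma protein haptoglobin that binds free haemoglobin, stood at -2.11 and -1.70 with fish oil and at -0.58 and -1.69 with n-6. Cybrd1, an iron reductase of the brush border, differed by -1.21 and Cp, the copper oxidase ceruloplasmin, by -0.96, each with both fish oil arrays below both n-6 arrays.

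Of the 3 higher genes, Slurp2, a small secreted protein of the Ly6/uPAR family, stood at -1.48 and -1.99 in fish oil colitis, against -6.36 and -6.75 in n-6 colitis. It was well above background on both fish oil arrays and on neither n-6 array, so its ratio is a bound, at least 17.9-fold higher with fish oil (limma adjusted p = 0.0274). For such bounds the dim group counts, on each array, as no lower than the faintest probe that array measured well above background, so the bound equals the fitted fold where the dim signal lay above that floor. The bounds hold for this scaling and these arrays only. The ALA arrays had Slurp2 at -4.89 and -5.85 and the healthy arrays at -6.86 and -6.40, so only the fish oil arrays were bright. Its probe lies at chr7:112857543-112857602 of rn4, on the minus strand.

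Lpal2 stood at -1.61 and -1.37 with fish oil and at -5.87 and -6.51 with n-6, at least 18.8-fold higher with fish oil (limma adjusted p = 0.0116). It too was well above background on both fish oil arrays and on neither n-6 array. Here the n-6 arrays were the low ones, since the ALA arrays stood at -1.67 and -1.64 and the healthy arrays at -2.87 and -3.28. Its probe lies at chr4:169218749-169218808 of rn4, on the plus strand. The transcript without a name stood at -2.52 and -2.61 with fish oil and at -7.43 and -6.73 with n-6, at least 10.1-fold higher (limma adjusted p = 0.0367). It was likewise well above background on neither n-6 array. The p-values of Lpal2, Slurp2 and this transcript thus rest on n-6 signals that were not well above background.

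**Figure D2:**
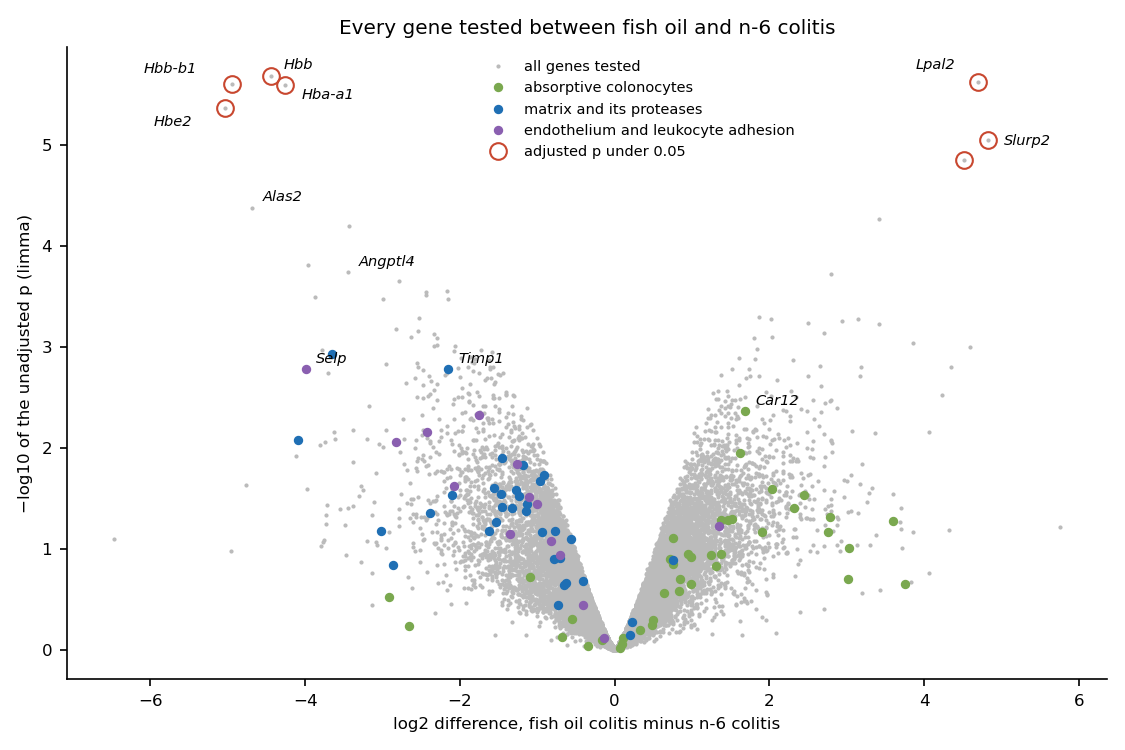
Log2 difference of each of 18171 genes, fish oil colitis minus n-6 colitis (horizontal axis), against −log10 of its unadjusted limma p (vertical axis); ringed points passed an adjusted p of 0.05 and coloured points are members of 3 gene lists. The 7 ringed genes stand away from the cloud, 4 on the left and 3 on the right, and the list members lie inside it.

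At an unadjusted p under 0.05 there were 1087 genes higher with fish oil, 5.98% of those tested, and 1091 lower ones, 6.00%, or 794 and 1474 with median centring. Both fish oil arrays lay above both n-6 arrays for 4185 genes, 23.0%, and below them for 4291, 23.6%. Without n-6 replicate 1, the unadjusted count was 408 higher and 470 lower of 18387 genes, together 4.78%. These shares are the background for the gene groups that follow, none of whose members apart from the haemoglobin chains passed the adjusted test. Apart from the haemoglobin chains, Alas2, Fosl1 and Angptl4, the lowest adjusted p of any list member was 0.408. Where counts of members at an unadjusted p under 0.05 are given, they are a description of these arrays.

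Among genes measured well above background on all 4 arrays, the lowest p-values on the higher side belonged to genes of varied function. Morn1 stood at -2.23 and -1.46 with fish oil and at -4.86 and -4.40 with n-6, a difference of 2.79 (adjusted p = 0.246). Nptx2, a neuronal pentraxin, stood at 1.45 and 0.84 with fish oil and at -1.89 and -1.22 with n-6, a difference of 2.70. Prkaa2, a catalytic subunit of the energy sensor AMPK, stood at -1.37 on both fish oil arrays, against -3.24 and -2.51 on the n-6 arrays. The groups did not overlap for any of the 3, and the n-6 arrays were also below every ALA and healthy array for Nptx2 and Prkaa2. Nuak2, a kinase related to AMPK, differed by 2.31, and Pank3, which starts coenzyme A synthesis, by 1.55. Galnt6, an enzyme that starts mucin-type O-glycans, differed by 2.03. Cd38, an enzyme that uses NAD, differed by 1.75. Slc19a2, a thiamine transporter, differed by 1.34 at its brightest probe and by 0.51 at another. The other genes named by the same rule were Prxl2a, Pip5k1b, Fam117b, Caskin2, Dip2b, Fahd1 and Klhl24, with differences of 1.31 to 1.86. None of the 15 passed, with adjusted p-values of 0.246 to 0.409.

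On the lower side, Angptl4, a secreted inhibitor of lipoprotein lipase, stood at -0.84 and -0.64 in fish oil colitis, against 2.87 and 2.54 in n-6 colitis. The ALA arrays stood at 0.67 and 0.80 and the healthy arrays at 0.31 and 1.75, so the fish oil arrays were the lowest and the n-6 arrays the highest of all 8. The difference was -3.44 (SE 0.481, adjusted p = 0.246). A2m, a broad protease inhibitor of plasma, stood at -1.48 and -2.27 with fish oil and at 2.60 and 1.20 with n-6, a difference of -3.78. Cd52, a surface peptide of lymphocytes, stood at -2.70 and -3.59 with fish oil and at -0.70 and -0.72 with n-6. Both genes separated the groups by more than the gap within either pair. Spns2, the exporter of sphingosine 1-phosphate that lymphocytes follow, differed by -2.15, and Tnfrsf12a, the receptor of the cytokine TWEAK, by -2.33. Bmp7, a ligand of the bone morphogenetic protein family, differed by -2.30. Nemp2, Rrp9 and Ak5, an adenylate kinase, differed by -2.07, -1.73 and -1.58. None of them passed, with adjusted p-values of 0.246 to 0.408.

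Some genes were well above background in 1 group alone, 40 named ones on both fish oil arrays and neither n-6 array, and 245 the other way round. The dimmer fish oil replicate 1 moved with this count, and its part in it was not tested. Hmmr, a hyaluronan receptor of dividing cells, was at least 3.5-fold higher with fish oil, without passing. Its difference fell to 0.73 over the alternatives. Hmces, which shields damaged DNA, was at least 7.71-fold lower, and Them7 at least 4.7-fold lower, both without passing. Over the alternatives their differences shrank to -0.52 and -0.28. Tnfrsf18, the lymphocyte receptor GITR, was at least 3.15-fold lower, but its fitted difference turned to 0.07 under normexp with 75th percentile scaling.

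Chemokines listed as drawing neutrophils, and 1 receptor, lay lower in fish oil colitis at each member tested. Of 6 tested, 5 ligands and 1 receptor, 4 had an unadjusted p under 0.05, all lower, against 6.00% of all genes. The 4 were ligands, and 5 of the 6 had no overlap, against 23.6%. The median difference was -2.33 beside 0.01 over all genes, and -1.62 without n-6 replicate 1, where no member reached an unadjusted p under 0.05. It was -1.19 without fish oil replicate 2. The 5 ligands alone had a median of -2.63, and the receptor a difference of -0.86. Cxcl2, a ligand of the neutrophil receptor CXCR2, stood at -0.32 and -1.66 with fish oil and at 3.33 and 1.46 with n-6. Cxcl1, a ligand of the same receptor, stood at -2.70 and -3.95 with fish oil and at 2.58 and -1.28 with n-6. Both fish oil arrays lay below both n-6 arrays for the pair, with n-6 replicate 1 the highest. Their differences were -3.38 and -3.98, and without n-6 replicate 1 they were -2.45 and -2.05. Cxcl3 differed by -2.63 with fish oil replicate 1 at 1.43 and replicate 2 at -1.91, against 2.67 and 2.10 with n-6. Pf4, a platelet chemokine counted among these ligands, stood at 0.16 and -1.06 with fish oil and at 2.42 and 0.75 with n-6. The 2 healthy arrays had Cxcl2 at -3.37 and -3.34, below both colitis groups.

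Promoters of 2 of these chemokines and of 2 adhesion genes described further on are printed here because their genes had large differences in the same direction and hold a match to the NF-kB motif, the site bound by a family of inflammatory transcription factors. They run from 250 bases before to 50 bases after the gene start, in RefSeq's GRCr8 assembly, and capitals mark the match. Cxcl1 is at chr14:17479272-17479571, Cxcl2 at chr14:17467206-17467505, Madcam1 at chr7:10690273-10690572 and Vcam1 at chr2:206742734-206743033, all on the minus strand. The fifth, Mmp10 at chr8:12974457-12974756 on the plus strand, has the AP-1 motif TGANTCA in capitals, the site of FOS and JUN proteins.

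Cxcl1: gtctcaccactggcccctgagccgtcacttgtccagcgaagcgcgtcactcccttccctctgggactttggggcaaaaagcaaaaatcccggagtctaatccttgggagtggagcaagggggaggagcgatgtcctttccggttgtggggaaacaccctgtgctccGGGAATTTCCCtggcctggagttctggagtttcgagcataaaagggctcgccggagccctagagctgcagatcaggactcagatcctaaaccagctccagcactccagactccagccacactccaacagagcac
Cxcl2: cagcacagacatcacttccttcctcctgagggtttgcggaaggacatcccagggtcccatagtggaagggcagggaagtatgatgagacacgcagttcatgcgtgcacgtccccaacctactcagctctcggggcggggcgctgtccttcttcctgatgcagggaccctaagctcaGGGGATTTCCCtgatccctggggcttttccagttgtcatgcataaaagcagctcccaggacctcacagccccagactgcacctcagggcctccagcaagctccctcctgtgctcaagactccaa
Madcam1: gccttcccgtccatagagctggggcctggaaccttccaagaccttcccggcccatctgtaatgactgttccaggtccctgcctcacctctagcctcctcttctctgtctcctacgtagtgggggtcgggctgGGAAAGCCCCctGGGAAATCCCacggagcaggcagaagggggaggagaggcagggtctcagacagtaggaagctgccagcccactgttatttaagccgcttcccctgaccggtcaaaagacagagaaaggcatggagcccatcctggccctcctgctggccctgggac
Vcam1: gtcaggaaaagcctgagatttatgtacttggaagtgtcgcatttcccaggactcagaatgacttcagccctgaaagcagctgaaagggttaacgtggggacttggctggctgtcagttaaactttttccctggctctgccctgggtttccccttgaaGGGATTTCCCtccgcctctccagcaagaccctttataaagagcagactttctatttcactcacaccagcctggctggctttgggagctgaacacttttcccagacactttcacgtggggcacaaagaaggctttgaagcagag
Mmp10: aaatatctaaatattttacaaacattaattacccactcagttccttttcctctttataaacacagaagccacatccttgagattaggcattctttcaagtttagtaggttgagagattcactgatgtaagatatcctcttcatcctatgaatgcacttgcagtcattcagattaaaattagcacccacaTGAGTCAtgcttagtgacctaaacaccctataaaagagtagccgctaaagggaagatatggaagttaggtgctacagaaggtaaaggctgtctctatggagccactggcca

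The NF-kB motif, searched on both strands, was found in 1142 of 27457 rat promoters of this length, 4.16%, and in 522 of 10796 promoters of tested genes, 4.84%. It was found in 2 of 4 promoters of the neutrophil chemokine list and in 4 of 8 promoters of the endothelial and adhesion list. It was found in 3 of 22 promoters of the interleukin and TNF list, in 2 of 15 of the CC chemokine list and in 0 of 21 of the matrix list. The AP-1 motif was found in 7.33% of all promoters and in 5.34% of those of tested genes, and in 6 of 21 promoters of the matrix list. It was found in 5 of 22 promoters of the interleukin and TNF list and in 1 of 15 of the CC chemokine list. It was found in 0 of 4 of the neutrophil chemokine list and in 0 of 8 of the endothelial and adhesion list. Of the lower genes with the smallest p-values, 9 had a promoter, with the NF-kB motif in 0 and the AP-1 motif in 1. Of the higher genes chosen by the same rule, 13 had a promoter, with the NF-kB motif in 0 and the AP-1 motif in 2. The absorptive colonocyte list, which lay mostly higher, had the NF-kB motif in 1 and the AP-1 motif in 3 of 33 promoters. A match describes the letters of the window and does not show that a factor binds there.

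Cytokines of the interleukin-1, interleukin-6 and TNF families lay mostly lower in fish oil colitis. Of 32 members tested, 28 had a difference below 0. Of the 32, 10 had an unadjusted p under 0.05 and lay lower, against 6.00% of all genes. No overlap and a lower level was seen in 18, against 23.6%. Il1b, the ligand interleukin-1 beta, stood at 0.11 and -0.35 with fish oil and at 2.70 and 1.11 with n-6, a difference of -2.03. Tnf, the ligand tumour necrosis factor, stood at 0.42 and 0.06 with fish oil and at 1.42 and 1.21 with n-6, a difference of -1.08. Csf1, the growth factor of macrophages, stood at -0.30 and -0.33 with fish oil and at 0.93 and 1.05 with n-6, a difference of -1.31. In all 3 the fish oil arrays lay below the n-6 arrays and close to the healthy ones, which had Il1b at 0.16 and -0.36 and Tnf at 0.29 and 0.41. The ligand antagonist Il1rn lay in the same direction, at 2.66 and 1.48 with fish oil and at 4.09 and 3.82 with n-6. Among receptors and their shared chains, Il1rl1, which binds interleukin-33, differed by -2.54, Il6r by -1.24 and Il6st, the signalling chain of the interleukin-6 family, by -0.86. Il23a, a chain of interleukin-23, differed by -1.22. The median of the list was -0.99, and -0.69 without n-6 replicate 1, where 5 members had an unadjusted p under 0.05.

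CC chemokines act mainly on monocytes and lymphocytes. Of 23 tested, 18 ligands and 5 receptors, 8 had an unadjusted p under 0.05 and 16 had no overlap, all lower. Over all genes these shares were 6.00% and 23.6%. The 8 were 6 ligands and 2 receptors. Ccl2, which draws monocytes, stood at 1.05 and -0.79 with fish oil and at 3.15 and 1.82 with n-6, a difference of -2.35. Ccl3, which draws monocytes and other leukocytes, stood at -3.20 and -2.13 with fish oil and at 0.15 and -0.74 with n-6, a difference of -2.37. Neither overlapped between groups. Ccl7 and Ccl12, also monocyte-drawing, differed by -2.35 and -1.92. Ccl5 and Ccl20 differed by 0.29 and 0.37 and overlapped. The median was -1.26, and -0.83 without n-6 replicate 1, where 2 members had an unadjusted p under 0.05.

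**Figure D3:**
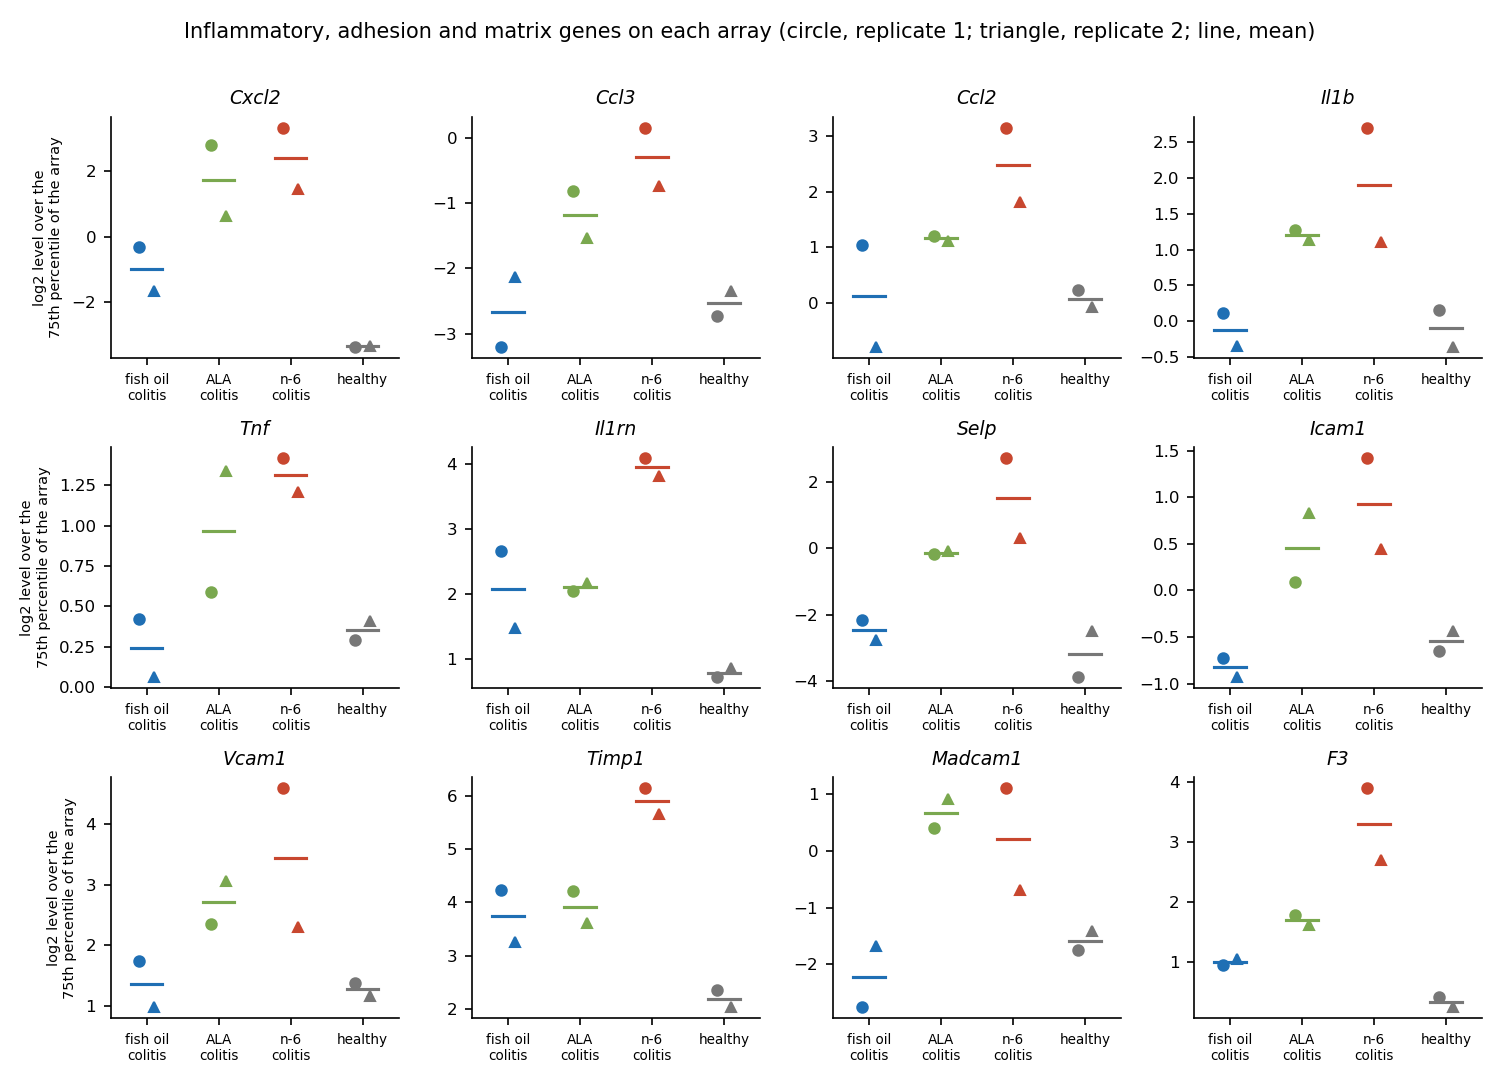
Log2 level over the 75th percentile of the array (vertical axis) of 12 genes of inflammation, adhesion, matrix and coagulation on each of 8 arrays; circles are replicate 1, triangles replicate 2 and lines the mean of each group. Both fish oil arrays lie below both n-6 arrays in every panel, and n-6 replicate 1 lies above n-6 replicate 2 in every panel.

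Of 19 NF-kB and immediate early genes tested, 15 had a difference below 0. Of the 19, 2 had an unadjusted p under 0.05 and lay lower, against 6.00% of all genes. The median was -0.47, and -0.29 without n-6 replicate 1, where 1 member had an unadjusted p under 0.05. Fosl1, an AP-1 subunit, stood at -3.65 and -4.26 with fish oil and at -1.34 and -1.31 with n-6, a difference of -2.63 (adjusted p = 0.22), with 1 fish oil array well above background. Egr2, an immediate early factor, differed by -1.73. The NF-kB subunits tested differed by -0.32 to 0.28. Interferon-response genes had a median of 0.25 over 34 tested, with none at an unadjusted p under 0.05, and -0.26 without n-6 replicate 1. The induced chemokine Cxcl10 stood at -1.44 and -1.30 with fish oil and at -1.33 and 0.03 with n-6. MHC class II genes, which present antigen, had a median of -0.38 over 8 tested, and -0.58 without n-6 replicate 1, with none at an unadjusted p under 0.05 in either fit.

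Adhesion molecules on the endothelium hold passing leukocytes. Of 14 endothelial and adhesion genes tested, 8 had an unadjusted p under 0.05 and lay lower, against 6.00% of all genes. All 6 adhesion molecules had no overlap and lay lower, against 23.6%. Selp, the selectin of activated endothelium and platelets, stood at -2.15 and -2.76 with fish oil and at 2.73 and 0.32 with n-6, a difference of -3.99. Icam1, a ligand of leukocyte integrins, stood at -0.72 and -0.93 with fish oil and at 1.42 and 0.44 with n-6, a difference of -1.75. Vcam1, the ligand of integrin alpha-4, stood at 1.74 and 0.98 with fish oil and at 4.59 and 2.30 with n-6, a difference of -2.08. The fish oil arrays lay below the n-6 arrays in all 3, by the widest margin against n-6 replicate 1. Madcam1, the address molecule for lymphocytes homing to the gut, differed by -2.42. Sele, the endothelial selectin, was well above background on neither fish oil array and at least 4.92-fold lower with fish oil, with a difference of -1.76 without n-6 replicate 1 and of -0.33 under normexp with 75th percentile scaling. Of the endothelial markers, Esam and Plvap differed by -1.26 and -1.11, while Cdh5 differed by 1.35 and Pecam1 by -0.41. The median of the list was -1.19, and -0.88 without n-6 replicate 1, where 3 members had an unadjusted p under 0.05.

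Several coagulation genes lay lower with fish oil. Of 10 tested 5 had an unadjusted p under 0.05 and lay lower, and so did 2 of 11 complement genes, against 6.00% of all genes. F3, tissue factor, which starts clotting, stood at 0.95 and 1.04 with fish oil and at 3.89 and 2.69 with n-6, a difference of -2.29 (adjusted p = 0.408). Procr, the receptor of protein C, differed by -1.97. C5ar1, the receptor of the complement fragment C5a, stood at -1.30 and -1.50 with fish oil and at 0.44 and -0.26 with n-6. All 3 had both fish oil arrays below both n-6 arrays. Without n-6 replicate 1 the median of the joint list was -0.61, beside -0.58 with it, and 5 of its members had an unadjusted p under 0.05.

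Markers of leukocytes lay lower with fish oil in several classes. Of 16 neutrophil genes tested, 4 had an unadjusted p under 0.05, all lower, against 6.00% of all genes, and the median was -0.75. Without n-6 replicate 1, 1 member did and the median was -0.58, and with n-6 replicate 2 left out the median was -1.26, with fish oil replicate 1 left out -1.35. Itgb2, the integrin chain that neutrophils use to leave vessels, stood at -3.34 and -3.02 with fish oil and at 0.01 and -1.56 with n-6. Ncf4, a subunit of the phagocyte oxidase, differed by -1.38, and S100a8, a cytosolic protein of neutrophils, by -2.38. S100a9, its partner, stood at -0.49 and -1.10 with fish oil and at 0.67 and -0.97 with n-6, so its arrays overlapped. Over the tested list, the median level relative to the mean of the 4 arrays was -0.04 and -0.77 on the fish oil arrays and 0.85 and 0.13 on the n-6 arrays.

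Macrophage genes had a median of -0.30 over 21 tested, with 4 at an unadjusted p under 0.05, all lower, against 6.00% of all genes. With n-6 replicate 1 left out, 1 member was at an unadjusted p under 0.05 and the median was -0.40, and the median was -0.53 without fish oil replicate 1 and -0.11 without fish oil replicate 2. Cd68, a lysosomal protein of macrophages, stood at -0.73 and -0.86 with fish oil and at 1.12 and 0.51 with n-6, a difference of -1.61. Gpnmb, a glycoprotein of activated macrophages, differed by -1.19, and Chi3l1, a secreted chitinase-like protein, was at least 4.63-fold lower. The difference of Chi3l1 was -1.17 without n-6 replicate 1 and -0.38 under normexp with 75th percentile scaling. Adgre1, a surface receptor that marks macrophages, lay the other way, at -1.48 and -1.30 with fish oil and at -2.64 and -2.06 with n-6. The markers of the class thus did not all lie in 1 direction.

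T and cytotoxic lymphocyte genes had a median of -0.62 over 21 tested, and 0.14 under normexp with 75th percentile scaling. At an unadjusted p under 0.05, 7 lay lower and 1 higher, against 6.00% and 5.98% of all genes. The median was -1.17 without n-6 replicate 1, with 3 lower and 0 higher. Cd3g, a chain of the T cell receptor complex, stood at -0.55 and -0.31 with fish oil and at 1.63 and 1.06 with n-6. Zap70, a kinase of that receptor, differed by -1.21. Prf1, the pore protein of cytotoxic cells, stood at -4.54 and -3.67 with fish oil and at -1.84 and -1.42 with n-6, with 1 fish oil array well above background. Gzmk, a granule protease, differed by -1.61. Foxp3, the factor of regulatory T cells, was the member that lay higher, at -1.05 and -1.98 with fish oil and at -2.95 and -2.13 with n-6. Cd3e, another chain of the receptor complex, differed by 0.11.

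B and plasma cell genes depended on n-6 replicate 1. Their median over 19 tested was -2.18, with 5 lower at an unadjusted p under 0.05 and 0 without n-6 replicate 1. Among all genes in the full fit, 6.00% lay lower at that p. The median of the list was -0.69 without n-6 replicate 1 and -4.0 without n-6 replicate 2. Ms4a1, the B cell protein CD20, and Cd79b, a chain of the B cell receptor, were well above background on neither fish oil array, at least 9.1-fold and 19.2-fold lower, with differences of -2.54 and -2.32 without n-6 replicate 1 and of -0.76 and -1.81 under normexp with 75th percentile scaling. On n-6 replicate 1 the median level of the list relative to the mean of the 4 arrays was 2.94, against -0.42 on n-6 replicate 2. It was 1.04 and 2.99 on the ALA arrays. The 3 follicle genes tested had a median of -1.41 with none at an unadjusted p under 0.05. Mast cell genes had a median of -0.76 over 9 tested, and 0.19 under normexp with 75th percentile scaling, with none at an unadjusted p under 0.05. It was -1.14 without n-6 replicate 1, with 3 lower.

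The matrix and its proteases held the most members at an unadjusted p under 0.05 of the 39 lists. Of 33 tested, 17 had an unadjusted p under 0.05, all lower with fish oil, and 28 had no overlap and lay lower, against 6.00% and 23.6% of all genes. Mmp10, a protease of the stromelysin type, stood at -3.10 and -4.69 with fish oil and at 1.96 and -1.56 with n-6, a difference of -4.09. Timp1, an inhibitor of matrix proteases, stood at 4.24 and 3.25 with fish oil and at 6.14 and 5.66 with n-6, a difference of -2.15. Col1a2, a chain of type I collagen, stood at 4.14 and 4.16 with fish oil and at 5.19 and 4.93 with n-6, a difference of -0.91. In all 3 the groups did not overlap. Healthy arrays had Timp1 at 2.36 and 2.03, below both colitis groups. Col12a1 and Fbn1, a fibril-linked collagen and fibrillin, differed by -1.45 and -1.18, and Loxl2, which cross-links collagen, by -0.97. Of 18 collagen and matrix genes tested 17 had a difference below 0. Some members counted at an unadjusted p under 0.05 had a second probe with a smaller difference that did not reach it. A protease had -0.36 there instead of -1.27, a type I collagen chain -0.65 instead of -1.56 and elastin -0.57 instead of -1.47. The second probe of Col12a1 gave -1.16 and did reach it. Without n-6 replicate 1 the median of the list was -0.72 instead of -1.18, and 4 members had an unadjusted p under 0.05.

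Fibroblast markers lay in the same direction as the matrix genes. All 8 tested lay at or below 0, 4 of them at an unadjusted p under 0.05, with a median of -1.01 and of -0.61 without n-6 replicate 1, where 1 was at an unadjusted p under 0.05. Among all genes in the full fit, 6.00% lay lower at that p. These values are those of the brightest probe of each gene. At a second probe the lowest member, at -2.33, differed by 0.13. Under normexp with quantile normalization the median was -0.57. Pdgfra, a growth factor receptor of stromal cells, stood at 1.66 and 1.47 with fish oil and at 3.02 and 2.56 with n-6. S100a4, a calcium-binding protein of fibroblasts and leukocytes, differed by -1.66. Their part in the matrix values was not tested. Smooth muscle genes had a median of 0.05 over 15 tested, which was -0.08 with median centring.

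Genes of the eicosanoid pathway, which turns arachidonic acid and the fish oil fatty acids into signals, were mixed. Of 34 tested, 8 lay lower and 2 higher at an unadjusted p under 0.05, against 6.00% and 5.98% of all genes. The median was -0.25, or 0.28 under normexp with 75th percentile scaling. Leaving out n-6 replicate 1 gave 5 lower and 0 higher, and a median of -0.19. Pla2g4a, the cytosolic phospholipase that releases arachidonic acid, stood at -3.25 and -2.74 with fish oil and at -0.77 and -1.72 with n-6, a difference of -1.75. Ptges, the inducible synthase of prostaglandin E2, stood at -2.81 and -4.01 with fish oil and at 0.18 and -1.85 with n-6, a difference of -2.57. Ptger2, a receptor of prostaglandin E2, stood at -2.89 and -3.31 with fish oil and at -1.30 and -1.76 with n-6, a difference of -1.57. The fish oil arrays were below the n-6 arrays in all 3. Over their whole roles, the 5 phospholipases tested had a median of -0.20 with 2 above 0, the 8 prostanoid synthesis genes one of -0.78 with 1 above 0, and the 7 prostanoid receptors one of 0.16 with 4 above 0. The ALA and healthy arrays had Ptger2 at -3.11 and -3.08, and at -3.19 and -3.22, close to the fish oil arrays. Hpgd, which breaks down prostaglandins, lay the other way, at 3.98 and 4.30 with fish oil and at 2.0 and 3.58 with n-6, a difference of 1.35.

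Other prostanoid enzymes differed less. Tbxas1, the thromboxane synthase, and Ptgis, the prostacyclin synthase, differed by -0.85 and -0.97 without overlap. Ptges2, a second synthase of prostaglandin E2, differed by 0.76. Ptgs1, the constitutive cyclooxygenase, stood at 1.26 and 2.11 with fish oil and at 2.65 and 2.22 with n-6, a difference of -0.75 (SE 0.445), but its probes averaged to 0.00. In the leukotriene branch, Alox5, Alox5ap and Lta4h differed by 0.25, 0.33 and 0.34, none at an unadjusted p under 0.05. Of the receptors listed for mediators made from n-3 fatty acids, Gpr18 stood at -1.42 and -1.78 with fish oil and at 1.54 and -0.17 with n-6, and Cmklr1 differed by -0.72. Gpr18 is also found on lymphocytes, whose markers are given above, and their part in its value was not tested. Ptger1, another receptor of prostaglandin E2, was at least 2.03-fold lower, but its fitted difference was 0.25 under normexp with 75th percentile scaling. The 3 epoxide enzymes tested, Ephx1, Cyp2j3 and Cyp2j4, differed by 0.73 to 1.59, each with both fish oil arrays above both n-6 arrays and none at an unadjusted p under 0.05.

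**Figure D4:**
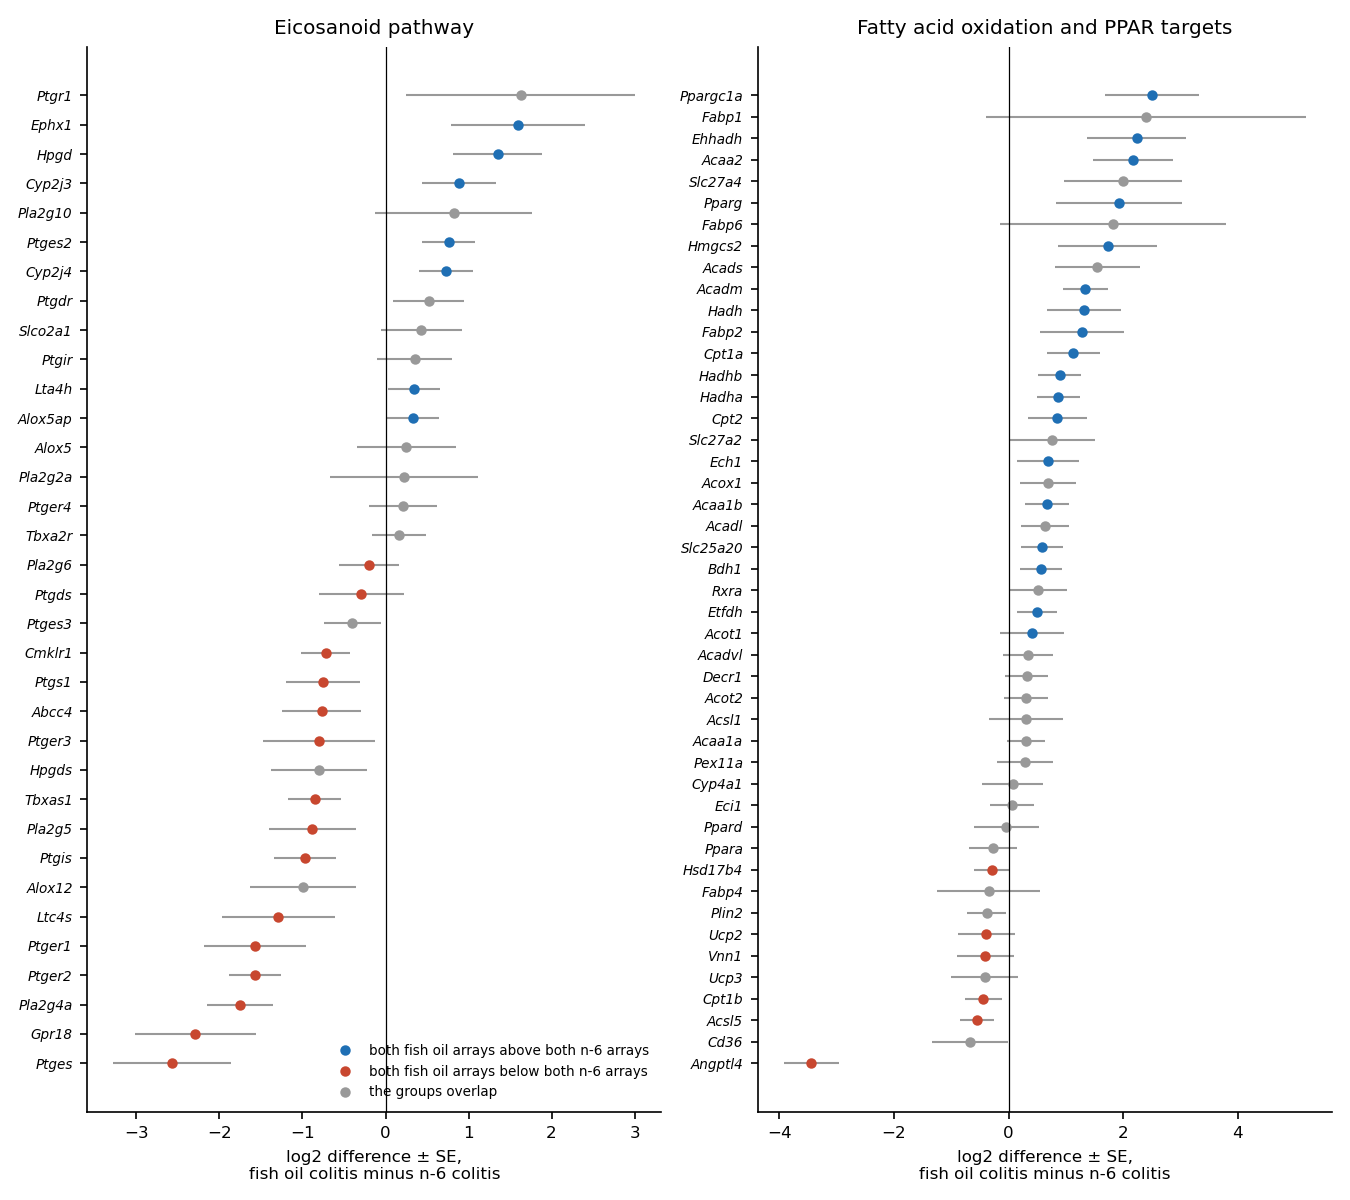
Log2 difference ± SE, fish oil colitis minus n-6 colitis (horizontal axis), of each tested gene of the eicosanoid pathway (left) and of fatty acid oxidation and PPAR targets (right); colour shows whether both fish oil arrays lay above (blue) or below (red) both n-6 arrays. Ptges, Gpr18 and Pla2g4a lie at the low end on the left, and Angptl4 stands alone at -3.44 on the right.

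Fatty acid oxidation genes lay mostly higher in fish oil colitis. Of 46 members tested, 6 were higher and 1 lower at an unadjusted p under 0.05, against 5.98% and 6.00% of all genes, and 18 had no overlap and lay higher, against 23.0%. Of 17 mitochondrial oxidation genes tested 16 had a difference above 0. Acadm, which opens the oxidation of medium-chain fatty acids, stood at 3.30 and 3.65 with fish oil and at 1.74 and 2.53 with n-6, a difference of 1.34. Acaa2, the thiolase of the last step, stood at 3.02 and 3.06 with fish oil and at -0.19 and 1.93 with n-6, a difference of 2.17. Cpt1a, which passes fatty acids to mitochondria, stood at 0.99 and 1.57 with fish oil and at -0.43 and 0.72 with n-6, a difference of 1.13. In each the fish oil arrays lay above the n-6 arrays, and n-6 replicate 1 was the lowest. Ehhadh, an enzyme of peroxisomal oxidation, differed by 2.24 and Hadhb, of the mitochondrial trifunctional protein, by 0.89. Ppargc1a, a coactivator of oxidation genes, differed by 2.50, with 1 n-6 array well above background. Healthy arrays had Acadm at 3.75 and 3.94, above the n-6 arrays.

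Among the PPAR receptors, Ppard differed by -0.04 at its brightest probe and by 0.51 over the mean of its probes, and Pparg by 1.93 (SE 1.1), at 3.33 and 3.5 with fish oil and at -0.23 and 3.19 with n-6. Angptl4, a PPAR target in other tissues, was the member at -3.44 described above, opposite to the oxidation genes. Fabp1, a fatty acid binding protein of enterocytes, stood at 4.78 and 3.51 with fish oil and at -2.29 and 5.79 with n-6, so its difference of 2.40 came with an SE of 2.79. The median of the list was 0.54, and 0.05 without n-6 replicate 1, where 1 member lay higher and 1 lower at an unadjusted p under 0.05. The direction of the list as a whole thus rested on that array.

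Desaturases and elongases, which lengthen dietary fatty acids and add double bonds, had no member at an unadjusted p under 0.05 among 10 tested. Fads1, the delta-5 desaturase, stood at -2.59 and -2.14 with fish oil and at -2.25 and -2.44 with n-6, a difference of -0.02 (SE 0.317). Fasn, the fatty acid synthase, stood at 1.67 and 2.66 with fish oil and at 1.60 and 2.69 with n-6, a difference of 0.02 (SE 0.685). Both genes overlapped between groups. Mlxipl, a carbohydrate-sensing factor of lipid synthesis, stood at -0.15 and 0.51 with fish oil and at -1.83 and -1.16 with n-6, a difference of 1.67. Of 17 cholesterol synthesis genes tested, 16 had a difference above 0 and 12 no overlap in that direction, against 23.0% of all genes. Sqle, which oxidises squalene on the way to cholesterol, stood at 3.13 and 3.48 with fish oil and at 2.58 and 2.96 with n-6, a difference of 0.53. Over all genes in the full fit, 5.98% lay higher and 6.00% lower at an unadjusted p under 0.05. The median of the 36 tested members of this list was 0.41, and 0.14 without n-6 replicate 1. Of them 2 lay higher and 0 lower at an unadjusted p under 0.05, against 2 and 1 without that array.

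Receptors of fatty acids and sterols had a median of 0.02 over 16 tested, -0.11 with median centring and -0.08 without n-6 replicate 1, with 2 higher and 3 lower at an unadjusted p under 0.05 and 0 without n-6 replicate 1. For all genes in the full fit these shares were 5.98% higher and 6.00% lower. Vdr, the vitamin D receptor, stood at -1.18 and -1.83 with fish oil and at -3.84 and -2.38 with n-6, a difference of 1.61. Nr1i3, a xenobiotic receptor, was well above background on neither n-6 array and at least 5.29-fold higher with fish oil, with a difference down to 0.56 over the alternatives. Abcg1, a sterol exporter, differed by -0.76. Ffar2, a receptor of short-chain fatty acids, stood at -1.56 and -2.91 with fish oil and at -3.40 and -3.54 with n-6.

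Genes of absorptive colonocytes lay mostly higher in fish oil colitis. Of 40 tested, 33 had a difference above 0. Of the 40, 6 had an unadjusted p under 0.05 and lay higher, against 5.98% of all genes. No overlap and a higher level was seen in 17, against 23.0%. Car2, a carbonic anhydrase of surface cells, stood at 6.51 and 5.71 with fish oil and at 2.27 and 5.31 with n-6, a difference of 2.32. Slc4a4, a bicarbonate transporter, stood at 1.02 and 0.93 with fish oil and at -1.69 and -0.42 with n-6, a difference of 2.03. Krt8, an epithelial keratin, stood at 3.91 and 4.10 with fish oil and at 1.69 and 3.09 with n-6, a difference of 1.62. The groups did not overlap for any of these, and n-6 replicate 1 lay furthest below. Car12, another carbonic anhydrase, differed by 1.69 with 1 n-6 array well above background. Slc9a3, the sodium-proton exchanger of the brush border, and Slc26a2, a sulfate transporter, differed by 2.45 and 2.78, each with 1 n-6 array well above background. Without n-6 replicate 1 the median of the list was 0.41 instead of 0.96, and 2 members had an unadjusted p under 0.05. Healthy arrays had Car2 at 5.82 and 6.10.

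Goblet cell genes, which make mucus, divided by role. Of 3 mucins and 10 secreted products tested, none had an unadjusted p under 0.05. Muc2, the main mucin of colon mucus, stood at 5.17 and 4.72 with fish oil and at 4.65 and 5.30 with n-6, although the mean of its probes differed by 0.44. Genes of the secretory machinery and the transcription factors of cell fate lay mostly higher with fish oil. Ern2, a stress sensor of mucus-making cells, stood at 2.70 and 1.83 with fish oil and at -1.77 and 0.72 with n-6, a difference of 2.79. Galnt12, which starts mucin O-glycans, stood at 3.90 and 3.88 with fish oil and at 1.61 and 2.99 with n-6, a difference of 1.59. Spdef, a goblet cell factor, differed by 1.61 at its brightest probe and by 0.72 at another, and Atoh1, the secretory fate factor, by 1.01. Of 25 tested, 4 had an unadjusted p under 0.05, all higher, against 5.98% of all genes. The median was 0.44, and 0.20 without n-6 replicate 1, where 2 members lay higher and 2 lower at an unadjusted p under 0.05.

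Junction genes had a median of 0.75 over 25 tested, and of 0.07 without n-6 replicate 1. Of these, 4 lay higher and 1 lower at an unadjusted p under 0.05, against 1 higher and 0 lower without n-6 replicate 1. The shares of all genes in the full fit were 5.98% higher and 6.00% lower. Cldn12, a claudin, stood at -1.60 and -0.81 with fish oil and at -2.99 and -2.54 with n-6, a difference of 1.56. Ctnnb1, beta-catenin of adherens junctions, stood at 1.0 and 1.16 with fish oil and at -0.26 and 0.13 with n-6, a difference of 1.15. Both separated the groups. Cgn, cingulin of tight junctions, and Dsc2, a desmosomal cadherin, differed by 1.58 and 1.29, and Cldn5, the claudin of endothelium, by -1.04. Tjp1, the tight junction protein ZO-1, stood at 2.43 and 3.05 with fish oil and at 2.55 and 3.03 with n-6.

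Epithelial defence and renewal were mixed. Slpi, a protease inhibitor secreted by epithelium, stood at -0.04 and -0.30 with fish oil and at 2.71 and 1.76 with n-6, a difference of -2.40. The ALA arrays had it at 2.53 and 1.80, so the fish oil arrays were low among the colitis groups. Duox1, a hydrogen peroxide-making oxidase, differed by -2.83 with 1 fish oil array well above background. Pigr, which carries IgA into the lumen, differed by 1.71. Reg3b, an antimicrobial lectin, stood at 7.06 and -2.48 with fish oil and at -2.97 and 3.38 with n-6, so arrays of a group lay further apart than the groups. The median of the defence list was -0.11 over 16 tested, and 0.06 under normexp with 75th percentile scaling, with 1 higher and 2 lower at an unadjusted p under 0.05. It was -0.17 without n-6 replicate 1, with 0 higher and 2 lower. Stem cell and Wnt target genes had a median of -0.40 over 13 tested, and 0.25 under normexp with 75th percentile scaling, and -0.54 without n-6 replicate 1. Of them 1 lay higher and 2 lower at an unadjusted p under 0.05, against 1 and 1 without that array. For both lists, the shares of all genes in the full fit were 5.98% higher and 6.00% lower. Myc, the growth factor of transcription downstream of Wnt, stood at 0.29 and -0.28 with fish oil and at 2.18 and 1.51 with n-6, a difference of -1.84. Lrig1, a brake on growth in stem cells, stood at -1.35 and -1.11 with fish oil and at -2.75 and -2.13 with n-6, and Nkd1, a Wnt feedback inhibitor, differed by -0.92.

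Cell cycle genes had a median of -1.51 over 37 tested, but -0.07 without n-6 replicate 1 and -2.83 without n-6 replicate 2. Mki67, a protein of dividing cells, stood at 0.42 and 0.91 with fish oil and at 3.53 and 1.01 with n-6. Pcna, the sliding clamp of replication, stood at -0.15 and 0.01 with fish oil and at 2.51 and 0.36 with n-6. Of these 4 arrays only n-6 replicate 1 was high for both, although no fish oil array lay above an n-6 array. Relative to the mean of the 4 arrays, the list median was 2.06 on n-6 replicate 1 and -0.58 on n-6 replicate 2. It was 0.85 and 1.76 on the ALA arrays. Tk1, a thymidine kinase, differed by -1.85 and Mcm3, a helicase subunit, by -2.21. Of the list 5 members had an unadjusted p under 0.05, and none did without n-6 replicate 1. In the full fit the members at that p all lay lower, as did 6.00% of all genes. B cell genes were high on n-6 replicate 1 too, as given above, and their part in the cell cycle values was not tested.

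**Figure D5:**
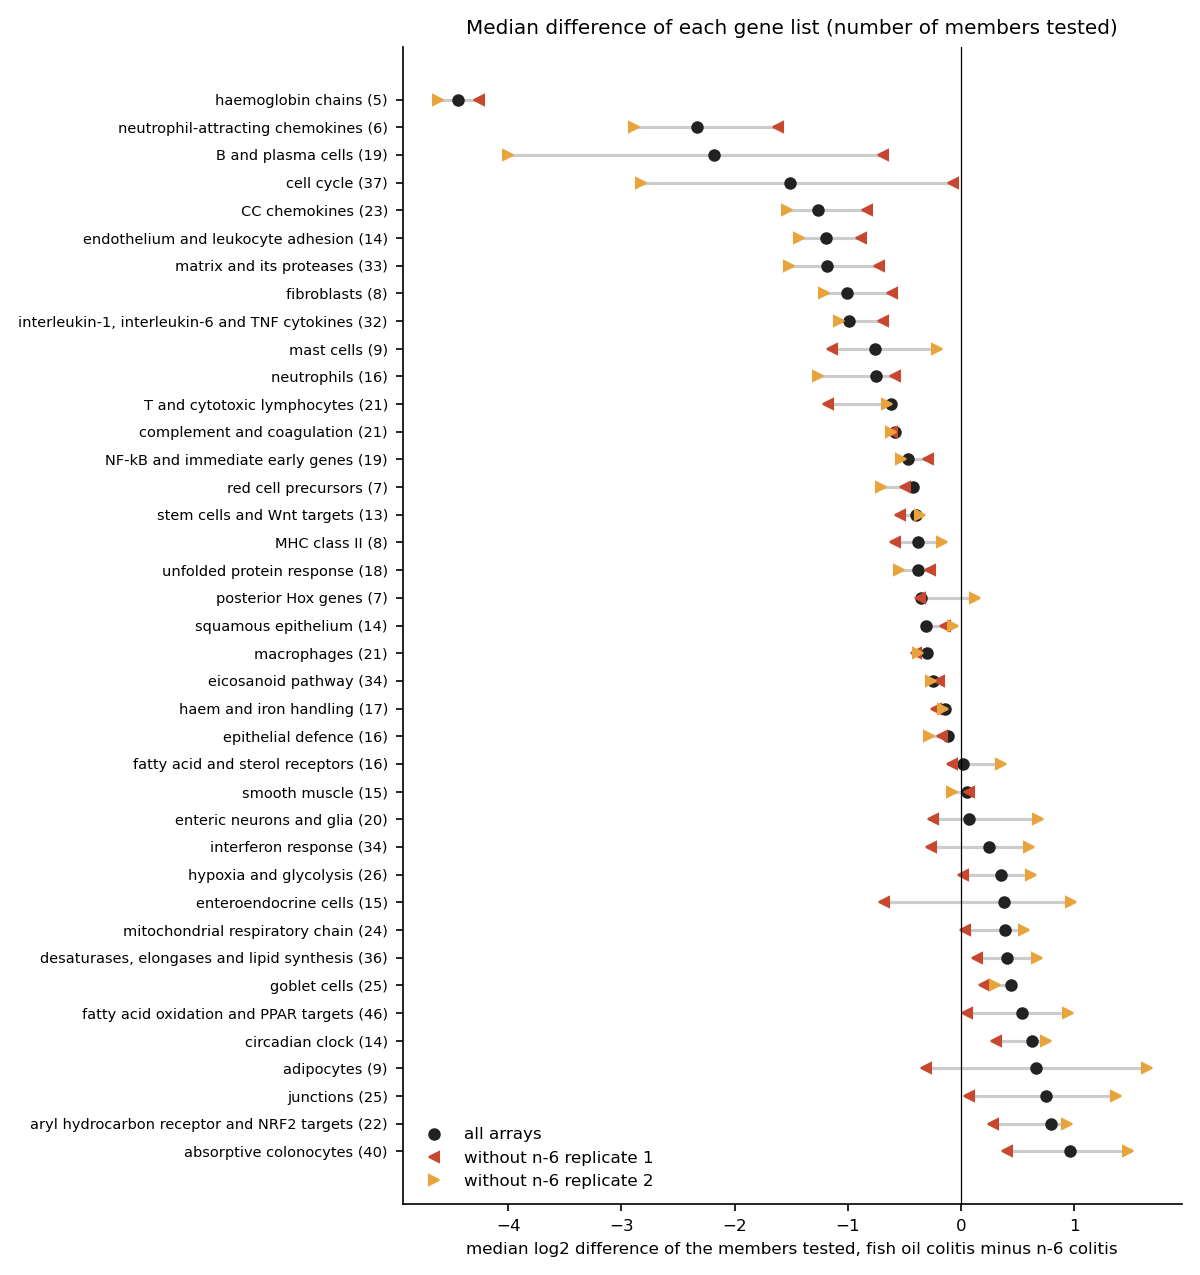
Median log2 difference, fish oil colitis minus n-6 colitis (horizontal axis), of the tested members of each of 39 gene lists, with their number in brackets; circles are all arrays and triangles the median after leaving out 1 n-6 array. The haemoglobin chains lie at -4.26 and -4.62 with either n-6 array left out, while the cell cycle list runs from -2.83 to -0.07.

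Across all 39 lists, 34 kept the sign of their median without n-6 replicate 1, and 24 medians moved by more than 1.5 times. The haemoglobin chains were among those that moved little, as were the coagulation and complement genes. The difference between the 2 replicates had an SD across genes of 0.76 for fish oil and of 1.01 for n-6.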

How the data were processed

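Colon RNA of 8 arrays on 1 slide was read as scanner tables. Per the file headers, each array was scanned in 1 colour (Cy3) and Agilent Feature Extraction 11.5.1.1 produced the processed signal, an intensity in linear units with background handled by that software, and the rn4 probe positions. The authors' deposited value table holds log2 values of the same arrays, whose 75th percentiles lie between 0.0032 and 0.009 and which correlate with the scanner values at 0.99 to 0.993; its centring is otherwise not given in the sources used here, and it served as an alternative.

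From the scanner tables, the processed signal was put on a log2 scale with no pseudocount and each array's 75th percentile was subtracted. Control spots were left out. Probes entered the fit if both arrays of at least 1 group had them well above background, which kept 20801 of 30367 probes. The probe with the highest mean stood for each of 18171 genes, of which 2365 had several probes. Probes were named through RefSeq's GRCr8 table, 18355 by accession, 454 by another accession, 2535 by symbol and 407 by synonym, and 8616 were not named this way and kept the name in the files. limma 3.58.1 in R 4.3.3 fitted all groups with a shared spread (4 residual and 3.02 prior degrees of freedom), with Benjamini-Hochberg adjustment over all genes, and was tested on simulated data. The number of arrays limits the precision. Promoters and their build are those of RefSeq's GRCr8.

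The genes named are those past an adjusted p of 0.05, up to 15 in each direction with the smallest p among genes measured on all 4 arrays without overlap and with a difference of at least 1, up to 3 in each direction measured in 1 group alone, and, for each of 39 lists, up to 6 members with the smallest p and members of a role described together. Predicted loci were not named, and some genes that this rule picks are not reported here. The comparison, the lists (931 symbols, 776 tested) and this rule were chosen with earlier results of these data known.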

Additional observations from a re-analysis of the deposited data

How the results depend on the processing

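Beside the 7 genes past an adjusted p of 0.05, 4 passed with normexp background correction and quantile normalization, 4 with normexp and 75th percentile scaling, 4 among genes well above background on all 8 arrays, and 0 in a fit of the 4 arrays alone, where 1769 had an unadjusted p under 0.05. Leaving out 1 array at a time gave 0 to 6. The replicate numbers are shared by the groups but no label pairs the arrays, and a replicate block gave 5. Replicate differences of the fish oil and n-6 groups correlated at -0.168, and a crossed block, chosen after seeing the data, gave 6. Normexp with 75th percentile scaling moved the median of all genes to 0.23, median centring to -0.12 and no filter on dim probes to 0.14. Hbb-b1 stayed between -5.37 and -4.52 under 22 alternatives, whereas the row matched to Hbb by gene name in the deposited value table had -0.70. The dim fish oil replicate 1 limits genes near background. Of 169 genes described, 151 kept their direction under every alternative run and 18 changed sign under 1 or more, for which the cause was not tested. Under normexp with 75th percentile scaling, Tnfrsf18 turned to 0.07, Ptger1 to 0.25, Fads1 and Ppard to 0.26 and Fasn to -0.06. Under normexp with quantile normalization, Alox5 turned to -0.00 and Tjp1 to 0.01. With median centring Cd3e turned to -0.02 and Fasn to -0.11. With quantile normalization Cd3e turned to -0.03, and Tfrc and Tjp1 to 0.00. With the 75th percentile of detected probes, Fads1 and Tfrc turned to 0.03, Muc2 to 0.02, Ppard to 0.01 and Tjp1 to 0.00. Averaging probes gave 0.44 for Muc2, 0.51 for Ppard, 0.00 for Ptgs1 and 0.24 for Tjp1, and taking every probe gave 1.07 for Ppard. The deposited value table gave 0.57 for Muc2, 0.10 for Ppard, 0.03 for Tjp1 and -0.01 for Fasn. Leaving out 1 array at a time, the range was -0.62 to 1.13 for Alox5, -0.45 to 1.19 for Ccl20, -0.80 to 1.38 for Ccl5, -0.28 to 0.51 for Cd3e, -1.65 to 6.44 for Fabp1 and -0.25 to 0.20 for Fads1. It was -0.53 to 0.56 for Fasn, -0.18 to 1.46 for Krt20, -0.36 to 0.30 for Muc2, -0.85 to 0.03 for Pecam1, -0.89 to 0.81 for Ppard and -2.69 to 6.86 for Reg3b. It was -1.47 to 0.17 for S100a9, -0.71 to 0.67 for Tfrc and -0.36 to 0.26 for Tjp1.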

Other observations

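Genes of defence against oxidants lay mostly higher in fish oil colitis. Of 22 targets of NRF2 and the aryl hydrocarbon receptor tested, 5 lay higher and 1 lower at an unadjusted p under 0.05, and the median was 0.80, or 0.28 without n-6 replicate 1, where 1 lay higher and 0 lower. Over all genes in the full fit, 5.98% lay higher and 6.00% lower at that p. Gsr, glutathione reductase, stood at -1.27 and -1.36 with fish oil and at -3.28 and -2.11 with n-6. Gsta4, a glutathione transferase, stood at 0.75 and 1.09 with fish oil and at 0.00 and 0.11 with n-6. Slc7a11, the cystine importer, lay the other way, with a difference of -1.90. None passed the adjusted test.

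Respiratory chain genes had a median of 0.39 over 24 tested, with 3 higher at an unadjusted p under 0.05, and 0.04 without n-6 replicate 1, with 1 higher. Among all genes in the full fit, 5.98% lay higher at that p. Atp5f1b, a subunit of ATP synthase, stood at 1.95 and 2.72 with fish oil and at 1.07 and 1.22 with n-6. Genes of the unfolded protein response had a median of -0.38 over 18 tested, and -0.27 without n-6 replicate 1. Of them 10 lay lower without overlap, against 23.6% of all genes, and 2 lay lower at an unadjusted p under 0.05, against 6.00%. Hspa5, the main chaperone of the endoplasmic reticulum, stood at 4.46 and 4.29 with fish oil and at 5.51 and 5.07 with n-6. Hypoxia and glycolysis genes had a median of 0.35 over 26 tested and circadian clock genes one of 0.63 over 14, neither with a member at an unadjusted p under 0.05. Without n-6 replicate 1 these medians were 0.02 and 0.31. Enteroendocrine genes had a median of 0.38 over 15 tested, which was -0.06 under normexp with quantile normalization and -0.68 without n-6 replicate 1. Genes of enteric neurons and glia had one of 0.07 over 20, which was -0.06 with median centring and -0.25 without n-6 replicate 1. Adipocyte genes had one of 0.66 over 9, which was -0.31 without n-6 replicate 1. Squamous epithelium genes had a median of -0.31 over 14 tested and posterior Hox genes one of -0.35 over 7, which were 0.31 and 0.14 under normexp with 75th percentile scaling, and -0.14 and -0.36 without n-6 replicate 1.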
